A study of Mus musculus with 2 samples.

Results

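The cells described here are CD4 T cells picked out of mouse ileum T cells by the UMIs of single genes. A UMI is a tag that counts 1 captured RNA molecule. Barcodes entered the analysis when they held 500 or more UMIs, 300 or more genes, no more than 10% mitochondrial UMIs and no more than 2 UMIs of the pseudogene Rps19-ps6. A kept barcode was called a CD4 T cell with at least 1 UMI of Cd4 and 0 UMIs of Cd8b1, Trdc and Mki67. The rule found 444 cells among the 10940 barcodes of the series, 211 in the library labelled SAP and 233 in the library labelled Control. They were 4.25% of 4965 kept barcodes in SAP (exact 95% interval 3.71 to 4.85) and 4.14% of 5634 in Control (3.63 to 4.69). Of these cells, 53 in SAP and 50 in Control also held a UMI of Cd8a.

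In the study's design, phages from SAP mice or from healthy mice were given to dendritic cells, which then shared a culture with intestinal T cells from GF mice. FucoID, an enzymatic proximity reaction on the cell surface, served to tag the T cells in contact with dendritic cells. The labels name the 2 libraries only SAP and Control and give ileum and T cells for both. Whether the sequenced cells are the marked fraction, and the number, sex and age of the animals, are not stated in the labels, which also do not say what Control received. Because each group is 1 library, no test was possible, no difference between the libraries has a replicate check, and each interval covers counting error alone.

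CD4 T cells are the helper branch of the alpha-beta T cells. They recognise peptides on MHC class II with the help of the CD4 coreceptor, give help to B cells and dendritic cells through CD40 ligand and cytokines, and in the gut include effector, IL-17-producing and regulatory cells. The epithelium of the ileum is, by contrast, mostly home to CD8 and gamma-delta T cells, many of which carry receptors and adaptors shared with natural killer cells.

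The whole libraries held 5203 barcodes with 19144320 UMIs in SAP and 5737 with 19142384 in Control. The CD4 T cells held 740912 UMIs in SAP and 852154 in Control, with a median of 3401 UMIs and 1322 genes per cell in SAP and 3329 UMIs and 1231 genes in Control. Other kept barcodes had a median of 3409.5 UMIs in SAP and 3129 in Control. Median mitochondrial shares were 1.53% in SAP and 1.18% in Control CD4 T cells. The libraries shared 6 barcode sequences, and none was a CD4 T cell in both. Levels below are CPM, the UMIs of a gene summed over the cells of a group and scaled to the same standard total of UMIs in each group. They describe summed RNA, so that more cells with a transcript and more transcript per cell cannot be told apart.

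The Cd4 transcript itself was thin. Of the CD4 T cells, 127 in SAP and 150 in Control had exactly 1 Cd4 UMI, 53 and 49 had 2, 21 and 21 had 3, and 10 and 13 had 4 or more. The highest count was 7 in SAP and 6 in Control. Across kept barcodes with a Trdc UMI, the gamma-delta marker, 0.633% in SAP and 0.53% in Control had a Cd4 UMI, at median depths of 3705 and 3379 UMIs. That is the level at which Cd4 appears in cells that should lack it. Among barcodes with more than 2 Rps19-ps6 UMIs, 1 of 63 in SAP and 0 of 31 in Control had one, and 0 of 31, read with a limit of 3 counts of the total, allows a share of up to 9.68%.

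The label was set beside 5 genes of helper cells that the rule did not use. They were chosen with earlier results of these data known, so their shares describe the cells and do not test the label. Cd40lg encodes CD40 ligand, Icos a costimulatory receptor, Tnfrsf4 the receptor OX40, Izumo1r the folate receptor 4 of regulatory and anergic T cells, and Maf a transcription factor of IL-10-producing, follicular and IL-17-producing helper cells. At least 1 of the 5 was found in 159 of 211 CD4 T cells in SAP (75.4%, exact interval 69.0 to 81.0) and 183 of 233 in Control (78.5%, 72.7 to 83.6). The same held for 12.8% of the other kept barcodes in SAP and 11.7% in Control, and for 9.13% and 7.66% of barcodes with a Trdc UMI. At least 2 of the 5 were found in 49.8% of CD4 T cells in SAP and 49.4% in Control, against 3.43% and 3.30% of other kept barcodes.

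Just inside the threshold, cells with exactly 1 Cd4 UMI held a helper gene in 74.8% of cases in SAP and 77.3% in Control, and cells with 2 or more in 76.2% and 80.7%. Just outside it, the 1907 SAP and 2312 Control barcodes that missed the rule by Cd4 alone held one in 14.9% and 15.3%. Their median depth was lower, at 2944 UMIs in SAP and 2800 in Control.

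Maf was the most abundant of the 5 helper genes. It stood at 692 CPM in SAP and 744 CPM in Control CD4 T cells, against 55.7 and 49.2 CPM in other kept barcodes, and was found in 127 and 147 cells. Icos was at 351 and 357 CPM against 33.2 and 26.7 CPM, and Tnfrsf4 at 169 and 226 CPM against 12.1 and 15.3 CPM. Cd40lg followed with 117 and 115 CPM against 8.70 and 8.27 CPM, and Izumo1r with 55.3 and 79.8 CPM against 6.32 and 5.04 CPM. Thus all 5 were between 8.76-fold and 15.8-fold higher in CD4 T cells in each library. Although these cells are 4.25% of kept barcodes in SAP and 4.14% in Control, they held 35.4% of the Maf UMIs of kept barcodes in SAP and 42.2% in Control. For Cd40lg those shares were 37.3% and 40.2%, and the remaining UMIs lay in barcodes without a Cd4 UMI or left out by another gene of the rule.

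**Figure D1:**
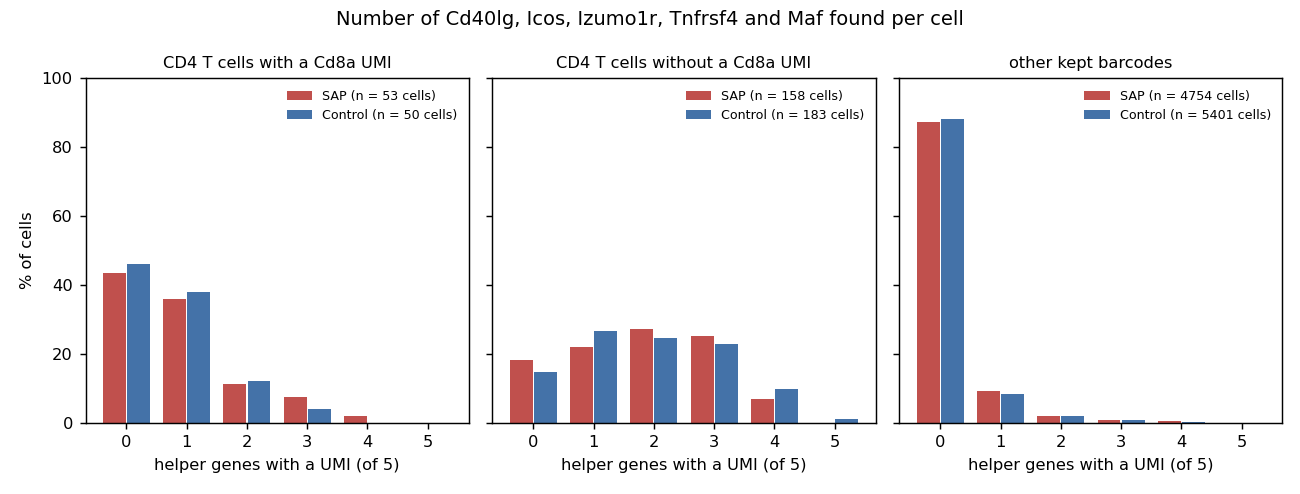
Share of cells (y axis, %) by how many of the 5 helper genes Cd40lg, Icos, Izumo1r, Tnfrsf4 and Maf had a UMI in the cell (x axis), for CD4 T cells with and without a Cd8a UMI and for other kept barcodes, in SAP (red) and Control (blue). Cells without a Cd8a UMI held at least 1 of the genes in 81.6% (SAP) and 85.2% (Control) of cases, cells with one in 56.6% and 54.0%, and other kept barcodes in 12.8% and 11.7%.

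Zbtb7b, the transcription factor ThPOK that fixes the CD4 lineage in the thymus, was too sparse to serve as a marker. It was found in 5 SAP and 13 Control CD4 T cells, at 6.75 and 16.4 CPM, against 8.16 and 7.42 CPM in other kept barcodes. A T cell receptor transcript was common: Trac, the alpha constant region, was at 698 CPM in SAP and 678 CPM in Control CD4 T cells against 482 and 505 CPM, and Cd3e had a UMI in 181 and 194 cells. The CD3 chains went both ways against the other barcodes. Cd3e was at 0.654-fold in SAP and 0.549-fold in Control, Cd3g at 0.482-fold and 0.468-fold and Cd3d at 0.790-fold and 0.722-fold, whereas Cd247, the zeta chain, was 1.71-fold higher in SAP (1.41 to 2.06) and 1.65-fold in Control (1.37 to 1.98). The rule excluded barcodes with a Trdc or Cd8b1 UMI, so the level of gamma-delta genes is partly set by it: Trgc1, a gamma constant region, was at 72.9 CPM in SAP and 45.8 CPM in Control CD4 T cells against 397 and 378 CPM.

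Transcripts of other cell types were measured in the same cells. The 12 dendritic and myeloid genes summed to 35.1 CPM in SAP and 30.5 CPM in Control CD4 T cells, with 8 of the 12 at 0 in each library, against 78.2 and 82.1 CPM in other kept barcodes. The 11 epithelial genes summed to 40.5 and 31.7 CPM against 188 and 162 CPM. The 10 B and plasma cell genes summed to 148 CPM in SAP but 9426 CPM in Control CD4 T cells. Most of this lay in a single Control barcode, which held 7492 Igkc, 335 Jchain and 76 Cd79a UMIs, and the next highest cell had 5 Igkc UMIs. Of its 15898 UMIs, 1 was Cd4, 2 were Cd3e and 47.1% were Igkc, and it made up 1.87% of the UMIs of the Control CD4 T cells. The rule keeps it, and without it 342 genes in place of 347 passed the fold against other kept barcodes.

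Set against the other kept barcodes, the CD4 T cells had higher levels of helper, costimulation and naive or central memory transcripts. Levels of adaptors and receptors of the natural killer type were lower. The cells were chosen on Cd4, Cd8b1, Trdc and Mki67 UMIs, so this comparison is a description. A gene was eligible with 20 CPM in 1 of the compared groups of each library, 50 UMIs and 20 cells. Of 5389 eligible genes, 347 (6.44%) passed 2-fold in the same direction in both libraries, 149 of them higher (2.76%) and 198 lower (3.67%). With each gene's top cell taken out of each group, which removes a larger part of the smaller group, 128 were higher and 277 lower. With edgeR TMM factors the counts were 181 and 158, and with DESeq2 median-of-ratios factors 185 and 153, since both moved the median log2 ratio of all eligible genes, -0.12, upward by 0.13 and 0.15. A gene list passes the filter partly through the group where its genes are high, so the list counts below describe and do not support the label.

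The list of helper cell cytokines also held the enkephalin precursor Penk, and 7 of its 16 genes passed the filter. Of these 7, Penk among them, 6 were at least 2-fold higher in both libraries and 0 lower, with a median log2 ratio of 2.66. Of 12 eligible cytokine receptor genes, 3 were (Il12rb2, Il18r1 and Il7r) and 0 lower, with a median log2 ratio of 0.14. Il18r1, a chain of the IL-18 receptor, was at 215 CPM in SAP and 232 CPM in Control CD4 T cells, against 11.1 and 9.35 CPM in other kept barcodes. Its partner chain Il18rap was 12.7-fold higher in SAP (9.10 to 17.6) and 16.6-fold in Control (12.1 to 22.6). Il7r, the IL-7 receptor chain of naive and memory T cells, stood at 452 and 418 CPM against 66.1 and 57.9 CPM. Il10, which encodes the regulatory cytokine IL-10, was 28.8-fold and 21.4-fold higher but lay in 17 SAP and 12 Control cells. Penk, the precursor of enkephalin peptides, had the highest ratios, 52.9-fold and 68.0-fold, and rested on very few cells. In SAP 54 of its 63 UMIs, and in Control 15 of its 23, were in 1 cell. Without that cell Penk was 7.55-fold higher in SAP and 23.7-fold in Control, and Il10 without its top cell was 21.3-fold and 13.9-fold higher.

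Surface costimulation genes were a further group. Of 12 eligible genes of the costimulation and TNF family list, 8 were at least 2-fold higher in both libraries and 0 lower, with a median log2 ratio of 2.12. All listed genes summed to 2535 CPM in SAP and 2602 CPM in Control CD4 T cells, against 718 and 753 CPM in other kept barcodes. Barcodes with a Cd8b1 UMI and no Trdc UMI lay between, at 1117 CPM in SAP and 1151 CPM in Control. Cd28, the receptor for CD80 and CD86, was at 375 CPM in SAP and 354 CPM in Control CD4 T cells against 40.1 and 39.2 CPM, in 99 and 105 cells. Cd5 was 5.50-fold and 4.59-fold higher, Cd6 3.62-fold and 3.11-fold, and Cd2 5.84-fold and 7.11-fold. The SLAM family receptors Slamf1 (7.42-fold and 10.8-fold) and Slamf6 (6.80-fold and 8.68-fold) and the adaptor Sh2d1a (5.96-fold and 6.31-fold) were higher too. Ctla4, the inhibitory counterpart of Cd28, reached 584 and 508 CPM against 115 and 105 CPM. Other named genes with more than 7-fold higher levels in both libraries were Ly6a, the surface protein Sca-1, and Podnl1, Emp1, Ifitm2, Hlf, S100a4 and S100a6.

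The S100a4 and S100a6 values turned on the limit on Rps19-ps6. S100a4, a calcium-binding protein of effector cells, was at 81.0 CPM in SAP and 56.3 CPM in Control CD4 T cells against 2.50 and 2.04 CPM, in 12 and 10 cells. In SAP 38 of its 60 UMIs lay in 1 cell, without which S100a4 was 11.9-fold higher in place of 32.4-fold. With the pseudogene-rich barcodes put back among the others, the mean log2 ratio of S100a4 was -1.04 instead of 4.90 and that of S100a6 -1.92 instead of 2.95.

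Genes shared by naive and central memory T cells stood higher as a group. All 7 eligible genes of the naive and central memory list were at least 2-fold higher in both libraries (median log2 ratio 1.99), namely Ccr7, Il7r, Klf2, Lef1, S1pr1, Satb1 and Tcf7. The other 3 listed genes did not pass the filter. The whole list summed to 850 CPM in SAP and 981 CPM in Control CD4 T cells, against 224 and 206 CPM in other kept barcodes. Barcodes with a Cd8b1 UMI and no Trdc UMI lay between, at 367 CPM in SAP and 325 CPM in Control. Tcf7, the transcription factor TCF-1 of self-renewing T cells, was at 124 CPM in SAP and 164 CPM in Control CD4 T cells against 56.1 and 59.9 CPM. S1pr1, the receptor for exit from tissue, was at 28.3 and 37.6 CPM against 4.47 and 2.78 CPM. Klf2, its transcriptional activator, was at 59.4 and 114 CPM against 28.5 and 24.4 CPM, and its mean log2 ratio of 1.64 became -0.29 when each cell was thinned to 1000 UMIs before the rule was applied.

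On the lower side were genes of the innate-like program. All 8 eligible genes of the list of innate-like receptors and adaptors were at least 2-fold lower in both libraries. The 14 listed genes summed to 370 CPM in SAP and 579 CPM in Control CD4 T cells, against 3261 and 3270 CPM in other kept barcodes. Low levels were not particular to CD4 T cells. Barcodes with a Cd8b1 UMI and no Trdc UMI held 736 CPM in SAP and 850 CPM in Control. Fcer1g, an ITAM adaptor, stood at 111 CPM in SAP and 171 CPM in Control CD4 T cells against 1143 and 1219 CPM. Tyrobp, which encodes the adaptor DAP12, was at 54.0 and 85.7 CPM against 618 and 623 CPM, and Klrd1, the receptor chain CD94, at 78.3 and 129 CPM against 875 and 871 CPM. The genes with the lowest ratios were nearly empty: Napsa had 0 UMIs in SAP and 4 in Control CD4 T cells, Septin4 0 and 2, Tspan9 4 and 0, Clnk 1 and 4, and Pik3cb 3 and 3. Bend4 and Emid1 completed the named genes of this side, with at most 3 UMIs in each library. Ikzf2, the factor Helios, is not on the innate-like list and was at 258 and 360 CPM against 1210 and 1246 CPM. It belongs to the list of regulatory T cell genes. Of 5 eligible genes of that list, 3 (Capg, Ctla4 and Il10) were at least 2-fold higher in both libraries and 1 (Ikzf2) lower.

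**Figure D2:**
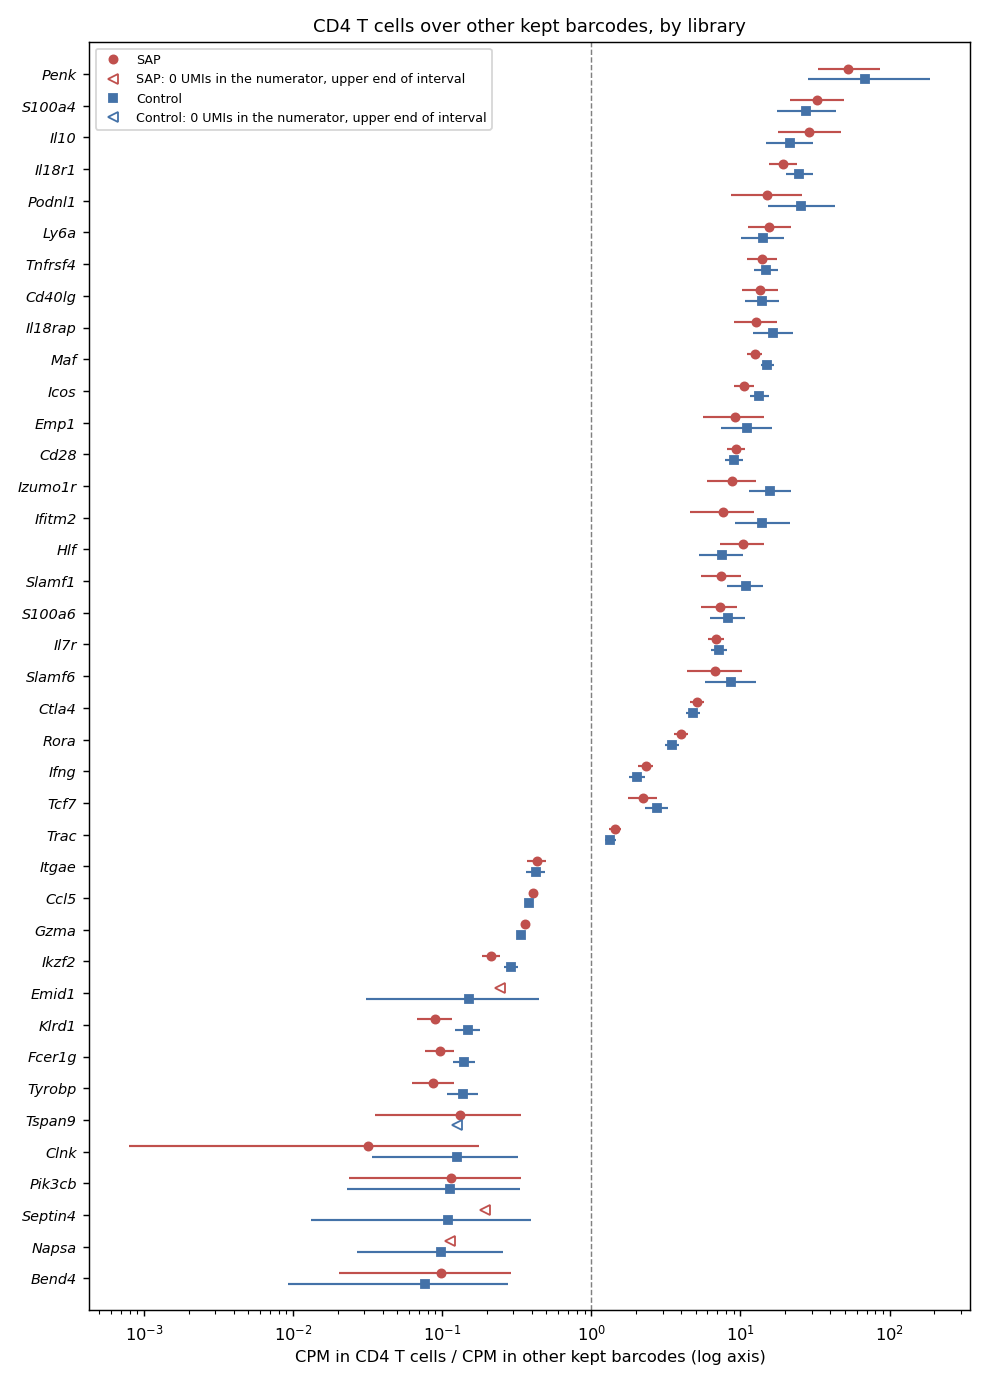
Ratio of CPM in CD4 T cells over CPM in other kept barcodes (x axis, log scale) with exact 95% counting intervals for named genes and some followed genes (y axis), in SAP (red circles) and Control (blue squares); open triangles mark the upper end of the interval where the CD4 T cells had 0 UMIs. Il18r1, Cd40lg, Maf and Icos lie between 10.6-fold and 24.8-fold higher, while Tyrobp, Fcer1g and Klrd1 lie between 0.0873-fold and 0.148-fold.

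Cytotoxic granule genes were lower but far from absent. Ccl5, a chemokine of effector T cells, was at 13520 CPM in SAP and 14165 CPM in Control CD4 T cells against 33451 and 36939 CPM. Gzma, which encodes granzyme A, was at 7808 and 7635 CPM against 21671 and 22573 CPM. Of 9 eligible genes of the list, 5 were at least 2-fold lower in both libraries (Ccl5, Ctsw, Gzma, Prf1 and Serpinb9) and 0 higher. After each cell was thinned to 1000 UMIs, Gzma had a UMI in 60.9% of SAP and 66.8% of Control CD4 T cells, against 84.4% and 87.1% of other kept barcodes. In the pseudogene-rich barcodes, set beside them as a background, Gzma was found in 12 of 56 and 6 of 24 barcodes at that depth. Among residency genes, Itgae, the integrin chain that binds E-cadherin of the epithelium, was at 265 and 236 CPM against 613 and 558 CPM, Itga1 at 94.5 and 86.8 CPM against 337 and 286 CPM, and Cxcr6 at 136 and 140 CPM against 66.4 and 68.1 CPM.

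Genes of the helper lineages were followed one by one. Ifng, the cytokine of the Th1 program, had a UMI in 86 of 211 CD4 T cells in SAP (40.8%, exact interval 34.1 to 47.7) and 81 of 233 in Control (34.8%, 28.7 to 41.3), against 22.5% and 21.8% of other kept barcodes. Thinned to 1000 UMIs, the shares for Ifng were 25.9% in SAP and 19.3% in Control CD4 T cells, against 12.4% and 11.1%, and 5.36% and 4.17% of the pseudogene-rich barcodes. Tbx21, the Th1 transcription factor, was not higher, at 60.7 CPM in SAP and 72.8 CPM in Control against 92.0 and 98.1 CPM. Of the 10 Th1 genes, all eligible, 6 were at least 2-fold higher in both libraries, namely Cxcr6, Ifng, Il12rb2, Il18r1, Il18rap and Tnf.

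Il17a, the cytokine of Th17 cells, was found in 9 SAP and 10 Control CD4 T cells (4.27% and 4.29%), against 0.568% and 0.426% of other kept barcodes. Its RNA was concentrated, since 3 cells held 69 of the 115 Il17a UMIs in SAP and 167 of the 238 in Control. Il22 was found in 6 and 4 cells, 2 and 2 of which also held Il17a. Rora, a nuclear receptor of Th17 and innate lymphoid cells, was in 136 and 136 cells and at 552 and 489 CPM against 138 and 141 CPM. Foxp3, the regulatory T cell factor, was in 7 of 211 and 7 of 233 cells, against 0.168% and 0.296% of other kept barcodes.

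Cells with Il10 were few, 17 in SAP and 12 in Control. Foxp3 was found in 4 and 2 of them and Il17a in 0 and 2. Ifng was found in 6 and 6 of them (35.3% and 50%), around its share of all CD4 T cells. Maf was found in 16 and 11 of them (94.1% and 91.7%), against 60.2% and 63.1% of all CD4 T cells. Of the cells with Ifng, 59.3% in SAP and 54.3% in Control held Maf, close to or below those shares. Gata3 and Bcl6, factors of Th2 and follicular helper cells, were found in 34 SAP and 30 Control cells (Gata3) and in 33 and 41 (Bcl6), with shares near those of other kept barcodes once thinned (Gata3 5.08% and 5.38% against 5.55% and 5.25%, Bcl6 5.08% and 8.07% against 5.15% and 6.88%).

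**Figure D3:**
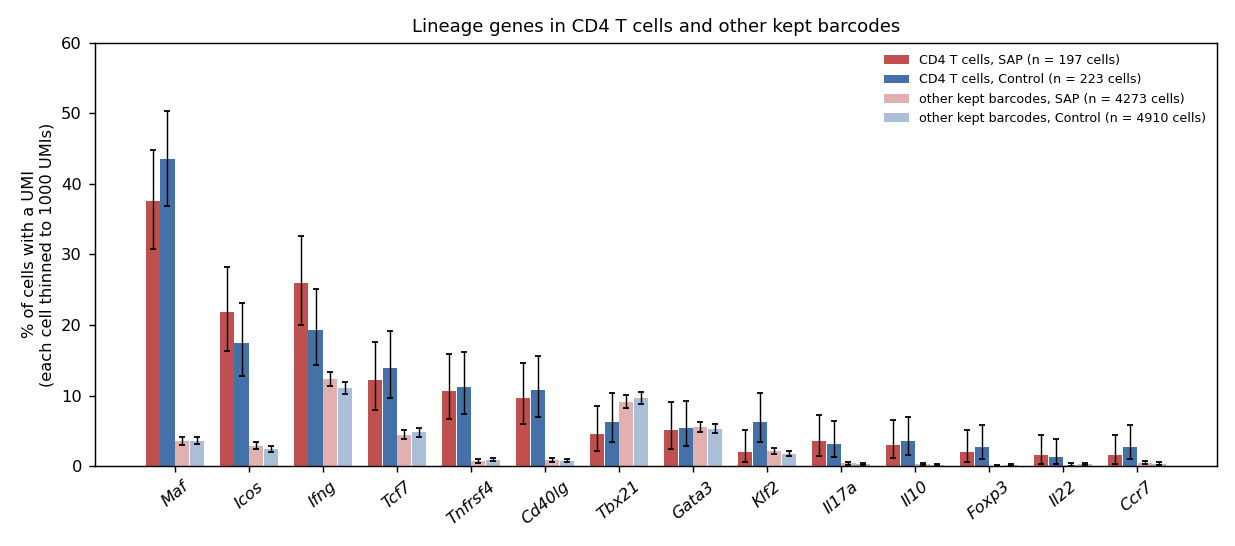
Share of cells with a UMI (y axis, %) of 14 lineage genes (x axis) after each cell was thinned to 1000 UMIs, with exact 95% intervals, in CD4 T cells (dark) and other kept barcodes (light) of SAP (red) and Control (blue). Maf and Icos separate the groups most, Ifng stood at 25.9% and 19.3% of CD4 T cells, and Il17a, Il10, Foxp3 and Il22 each lie under 4%.

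Within the CD4 T cells, the cells that also held a Cd8a UMI were compared with those that did not. Cd8a was found in 25.1% of SAP (exact interval 19.4 to 31.5) and 21.5% of Control CD4 T cells (16.4 to 27.3), and of these cells 28 and 22 had 1 Cd8a UMI, 7 and 10 had 2, and 18 and 18 had 3 or more. Thinned to 1000 UMIs the Cd8a share was 14.2% in SAP and 8.52% in Control. In the pseudogene-rich barcodes it was 5.36% and 8.33%, the latter from at most 31 barcodes. The thinned Control share lay near this background, which is too small to set it apart. Unthinned, Cd8a was at 155 CPM in SAP and 148 CPM in Control CD4 T cells, against 14.1 and 17.4 CPM in those barcodes. Cells with and without Cd8a had like depths, with medians of 3353 and 3410 UMIs in SAP and 3613 and 3267 UMIs in Control. High Scrublet scores, a doublet measure, were found in 1 of 53 and 7 of 50 cells with Cd8a in SAP and Control, against 1 of 158 and 3 of 183 cells without. Without those cells, 172 genes differed at least 2-fold in both libraries, against 161 with them.

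Among 3764 genes eligible in this comparison, 161 (4.28%) passed 2-fold in the same direction in both libraries, with 72 higher (1.91%) and 89 lower (2.36%) in cells with Cd8a. For 63 of the higher and 59 of the lower genes the intervals excluded 1 in both libraries. With each gene's top cell taken out of each group, which removes a larger part of the smaller group, 57 were higher and 152 lower. All 4 eligible genes of the innate-like list (Cd160, Fcer1g, Klrd1 and Tyrobp) and 4 of 8 eligible genes of the cytotoxic granule list (Ccl5, Gzma, Gzmb and Nkg7) were among the higher genes, and 0 of either list among the lower. The other innate-like genes did not pass the filter. Tyrobp in both libraries, and Fcer1g and Klrd1 in SAP, reached 20 CPM only in the cells with Cd8a. List counts of the Cd8a split thus describe the cells and support no claim about the lists. Tyrobp was at 187 CPM in SAP and 318 CPM in Control cells with Cd8a, against 3.72 and 12.3 CPM in cells without. In SAP 15 of its 38 UMIs lay in 1 cell, without which Tyrobp was 30.3-fold higher in place of 50.1-fold. Fcer1g was at 388 and 598 CPM against 5.58 and 37.0 CPM. These transcripts sat in part of the cells, since Fcer1g had a UMI in 9 of 53 SAP and 19 of 50 Control cells with Cd8a and in 2 of 158 and 16 of 183 cells without. Klrd1 was 19.2-fold higher in SAP (8.68 to 50.2) and 10.8-fold in Control (6.84 to 17.6), and Cd7, a surface protein of T and natural killer cells, 9.54-fold and 8.79-fold.

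Gzma was at 18407 CPM in SAP and 20116 CPM in Control cells with Cd8a, against 3788 and 3702 CPM in cells without, and Ccl5 at 29853 and 36305 CPM against 7325 and 7190 CPM. The gamma constant regions were higher as well: Trgc4 was 7.91-fold and 12.3-fold higher, Trgc2 3.77-fold and 6.06-fold, and Trgc1 6.26-fold and 3.34-fold, the last of which was 1.84-fold without 1 cell. Trac did not follow, at 697 and 676 CPM against 698 and 679 CPM. Itgae was at 530 and 573 CPM against 164 and 130 CPM, and Itga1 and Itgb7 were also past 2-fold. Ifng was 1.86-fold higher in SAP (1.46 to 2.36) and 1.94-fold in Control (1.53 to 2.45). The remaining named genes of this side were Sft2d2, Cd200r4, Adgrg5 and Cst7, the inhibitor cystatin F, at 3.60-fold to 13.8-fold higher. Cd4, on which the cells were chosen, was at 501 CPM in SAP and 367 CPM in Control cells with Cd8a against 450 and 451 CPM in cells without, 1.11-fold in SAP (0.873 to 1.41) and 0.815-fold in Control (0.624 to 1.05).

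Of the 5 helper genes, 2 (Icos and Maf) were at least 2-fold lower in both libraries in the cells with Cd8a and 0 higher. Icos was at 133 CPM in SAP and 83.3 CPM in Control cells with Cd8a against 434 and 443 CPM in cells without, Maf at 329 and 309 CPM against 830 and 881 CPM, and Cd28 at 128 and 68.6 CPM against 469 and 444 CPM. Cd40lg was at 0.506-fold in SAP and 0.321-fold in Control, Tnfrsf4 at 0.563-fold and 0.0501-fold, and Izumo1r at 0.543-fold with an interval that held 1 (0.203 to 1.24) and 0.0474-fold. In SAP 1 cell with Cd8a held 19 of the 22 Tnfrsf4 UMIs, and 1 cell held 6 of the 14 Cd40lg UMIs. Without the top cell Tnfrsf4 was at 0.0768-fold and Cd40lg at 0.289-fold in SAP. Of 6 eligible naive and central memory genes, 5 were at least 2-fold lower in both libraries. Among them were Il7r (0.15-fold and 0.448-fold, and 0.193-fold in Control without 1 cell) and Tcf7 (0.286-fold and 0.325-fold). S1pr1 had 0 UMIs in SAP and 1 in Control cells with Cd8a against 21 and 31 UMIs in cells without, and Cd9 had 0 and 1 against 16 and 36. Il18r1 was at 58.9 and 58.8 CPM against 274 and 287 CPM, with 6 of its 12 Control UMIs in 1 cell. Ctla2a, Kctd12, Mast4, Zfp281, Klf3, Dyrk2, Rab11fip1 and BE692007 were further named lower genes, each with at most 5 UMIs in the cells with Cd8a of a library.

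The helper and innate-like transcripts were then set against each other cell by cell, a count chosen after the values above were seen. A cell was scored for any of the 5 helper genes and for any of Fcer1g, Tyrobp and Klrd1. Among cells with Cd8a, 27 of 53 in SAP and 16 of 50 in Control held helper genes only, 9 and 12 innate-like genes only, 3 and 11 both, and 14 and 11 neither. The cells with both had median depths of 4299 UMIs in SAP and 5717 UMIs in Control, above the 3770 and 3613 UMIs of cells with helper genes only. Among cells without Cd8a, 119 of 158 and 132 of 183 held helper genes only and 1 and 5 innate-like genes only. For comparison, 65.6% of other kept barcodes in SAP and 68.2% in Control held innate-like genes only. Most cells without Cd8a thus carried a helper gene (81.6% in SAP, 85.2% in Control). About as many cells with Cd8a carried a helper gene (56.6% in SAP, 54.0% in Control) as lacked one.

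**Figure D4:**
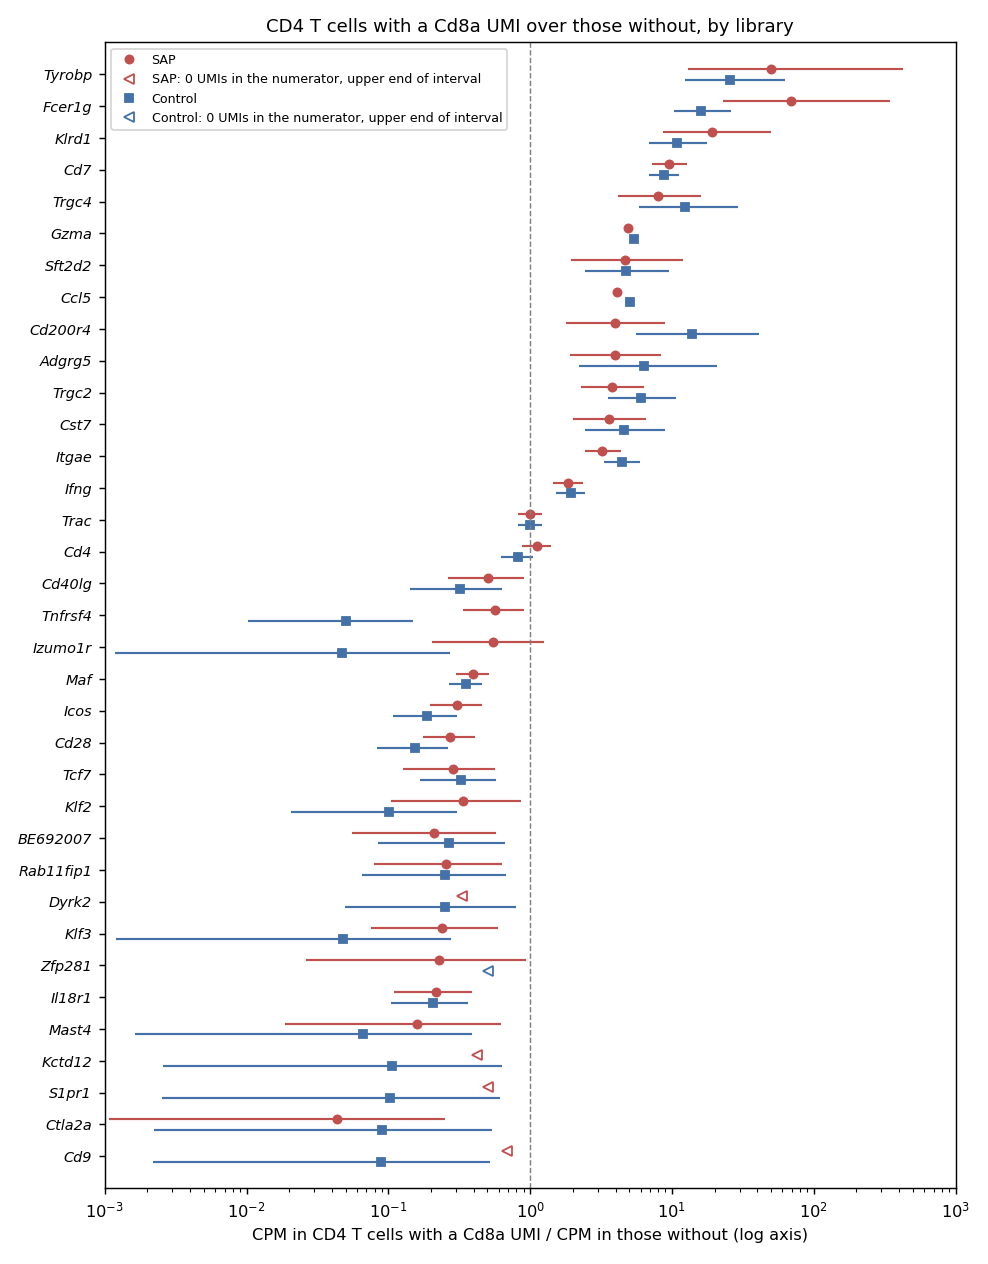
Ratio of CPM in CD4 T cells with a Cd8a UMI over CPM in those without (x axis, log scale) with exact 95% counting intervals, for named genes and some followed genes (y axis), in SAP (red circles) and Control (blue squares); open triangles mark the upper end of the interval where cells with Cd8a had 0 UMIs. Tyrobp, Fcer1g and Klrd1 lie from 10.8-fold to 69.4-fold higher, Trac lies near 1, and Cd28, Icos and Maf lie from 0.154-fold to 0.396-fold.

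Between the libraries, the CD4 T cells resembled each other in most transcripts that define them. This comparison addresses the study's question for the CD4 T cells, which transcripts set SAP apart from Control. Maf was 0.931-fold in SAP over Control (0.827 to 1.05), Icos 0.984-fold (0.830 to 1.16), Cd40lg 1.02-fold (0.756 to 1.38), Cd28 1.06-fold (0.896 to 1.25) and Ifng 1.07-fold (0.904 to 1.25). Izumo1r was at 0.693-fold with an interval that held 1 (0.459 to 1.04). Tnfrsf4 was lower, at 169 CPM in SAP and 226 CPM in Control CD4 T cells (0.745-fold, 0.590 to 0.938), and in other kept barcodes it was at 0.790-fold (0.656 to 0.952).

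Past 1.5-fold lay 315 of 3765 eligible genes (8.37%), with 206 higher (5.47%) and 109 lower (2.90%) in SAP CD4 T cells, and 91.6% lay within it. For 116 of the higher and 66 of the lower genes the interval excluded 1. The balance of higher and lower genes depended on the scaling, with 153 and 152 under TMM factors and 159 and 143 under DESeq2 factors, and without the Igkc-rich Control barcode the counts were 181 and 111. Each side is 1 library, so the genes below are named as the largest differences of these libraries only.

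Named genes higher in SAP were of mixed function and low abundance. Syne1, a nuclear envelope protein, was at 48.6 CPM in SAP and 16.4 CPM in Control CD4 T cells (2.96-fold, 1.56 to 5.94), in 33 and 14 cells. Oat, ornithine aminotransferase, was at 87.7 and 38.7 CPM (2.27-fold, 1.47 to 3.56). Bst2, the interferon-induced protein tetherin, was at 82.3 and 37.6 CPM (2.19-fold, 1.41 to 3.48), while in other kept barcodes it was at 0.897-fold. In SAP 1 cell held 14 of its 61 UMIs, and without the top cell of each library Bst2 was 1.86-fold higher. Of 3 eligible genes of the type I interferon list, only Bst2 passed 1.5-fold, and their median log2 ratio was -0.22. Rbmx, Zfp62, Mrpl4, Aqr, Adgrg5, Itgav and Ankib1 completed the side at 2.19-fold to 2.48-fold, each at 0.949-fold to 1.28-fold in other kept barcodes. Of these, Rbmx, Mrpl4, Aqr and Itgav were lower in SAP when cells were thinned to 1000 UMIs before the rule, which left 90 and 99 cells.

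Named genes lower in SAP were of mixed function too. Trib1, a pseudokinase, was at 18.9 CPM in SAP and 45.8 CPM in Control CD4 T cells (0.413-fold, 0.207 to 0.777), and Mir155hg, the host transcript of the microRNA miR-155, at 20.2 and 46.9 CPM (0.431-fold, 0.221 to 0.798). Cxcl10, an interferon-induced chemokine, was at 67.5 and 156 CPM (0.432-fold, 0.306 to 0.603), where 57 of the 133 Control UMIs lay in 1 cell. Pgam1, a glycolytic mutase, was at 51.3 and 111 CPM (0.460-fold, 0.307 to 0.677), and Hk1, a hexokinase, at 28.3 and 61.0 CPM (0.464-fold, 0.266 to 0.785). In other kept barcodes Pgam1 was at 0.998-fold and Hk1 at 0.903-fold, while Mir155hg was at 0.700-fold. Olfr1369-ps1, Pak1ip1, Rin3, Cisd1 and Ap2s1 were the other named genes, at 0.451-fold to 0.484-fold.

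Of 117 eligible genes on the gene lists, 14 passed 1.5-fold between the libraries (12%, against 8.37% of all eligible genes). None of the 5 helper genes and none of the 8 T cell genes did. The 14 were Bst2, Cd27, Fasl, Gata3, Gpr34, Hopx, Ighm and Trgc1 on the higher side and Dusp2, Fcer1g, Il6st, Klf2, Klrd1 and Tyrobp on the lower. Klf2 was at 59.4 CPM in SAP and 114 CPM in Control CD4 T cells (0.522-fold, 0.357 to 0.752), in 22 and 34 cells, against 1.17-fold in other kept barcodes. Cd27, a costimulatory receptor of memory cells, was at 91.8 and 45.8 CPM (2.01-fold, 1.33 to 3.05) against 1.04-fold, and Hopx, a transcriptional regulator of effector cells, at 211 and 120 CPM (1.76-fold, 1.36 to 2.28) against 0.914-fold. One SAP cell held 36 of the 156 Hopx UMIs. Gata3 was at 86.4 and 49.3 CPM (1.75-fold, 1.17 to 2.65), and it too turned lower under thinning before the rule. Just short of 1.5-fold lower, Ltb, lymphotoxin beta, was at 260 and 385 CPM (0.677-fold, 0.564 to 0.811), and Il2rb, the shared chain of the IL-2 and IL-15 receptors, at 209 and 312 CPM (0.670-fold, 0.546 to 0.820).

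Of 4 eligible genes of the innate-like list, 3 were at least 1.5-fold lower in SAP CD4 T cells. The fourth, Cd160, was not, with 60 UMIs in SAP and 66 in Control. The other genes of that list did not pass the filter. Fcer1g was at 111 CPM in SAP and 171 CPM in Control (0.646-fold, 0.487 to 0.852), in 11 and 35 cells, Tyrobp at 0.630-fold (0.417 to 0.939) and Klrd1 at 0.606-fold (0.433 to 0.841). In other kept barcodes Fcer1g was at 0.938-fold and Tyrobp at 0.993-fold, and Klrd1 at 875 and 871 CPM. The share of high Scrublet scores moved with them, at 2 of 211 cells in SAP and 10 of 233 in Control, and its part in the difference was not tested.

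Several cytokine genes were too sparse for the filter and are given as counts. Tnfsf11, which encodes RANK ligand, had 27 UMIs in 19 SAP cells and 7 UMIs in 5 Control cells (4.44-fold, 1.88 to 12.1), and in other kept barcodes it was 2.90-fold higher in SAP (1.74 to 5.04). Il21, a cytokine of follicular helper cells, had 8 UMIs in 6 SAP cells and 24 UMIs in 17 Control cells (0.383-fold, 0.149 to 0.882). Il17a had 115 UMIs in SAP and 238 in Control from nearly equal numbers of cells. Of 11 eligible genes of the dissociation stress list, 0 passed 1.5-fold, with a median log2 ratio of 0.21 against 0.05 for all eligible genes. They went both ways, with Jun at 714 and 522 CPM (1.37-fold, 1.2 to 1.55), Hspa1b at 1104 and 749 CPM (1.47-fold, 1.33 to 1.64) and Fosb at 341 and 249 CPM (1.37-fold, 1.14 to 1.66), and Dnajb1 at 0.880-fold (0.723 to 1.07), Zfp36 at 0.918-fold (0.764 to 1.10) and Junb at 0.980-fold (0.934 to 1.03). In other kept barcodes Jun was at 1.09-fold, Hspa1b at 1.08-fold and Fosb at 1.29-fold.

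**Figure D5:**
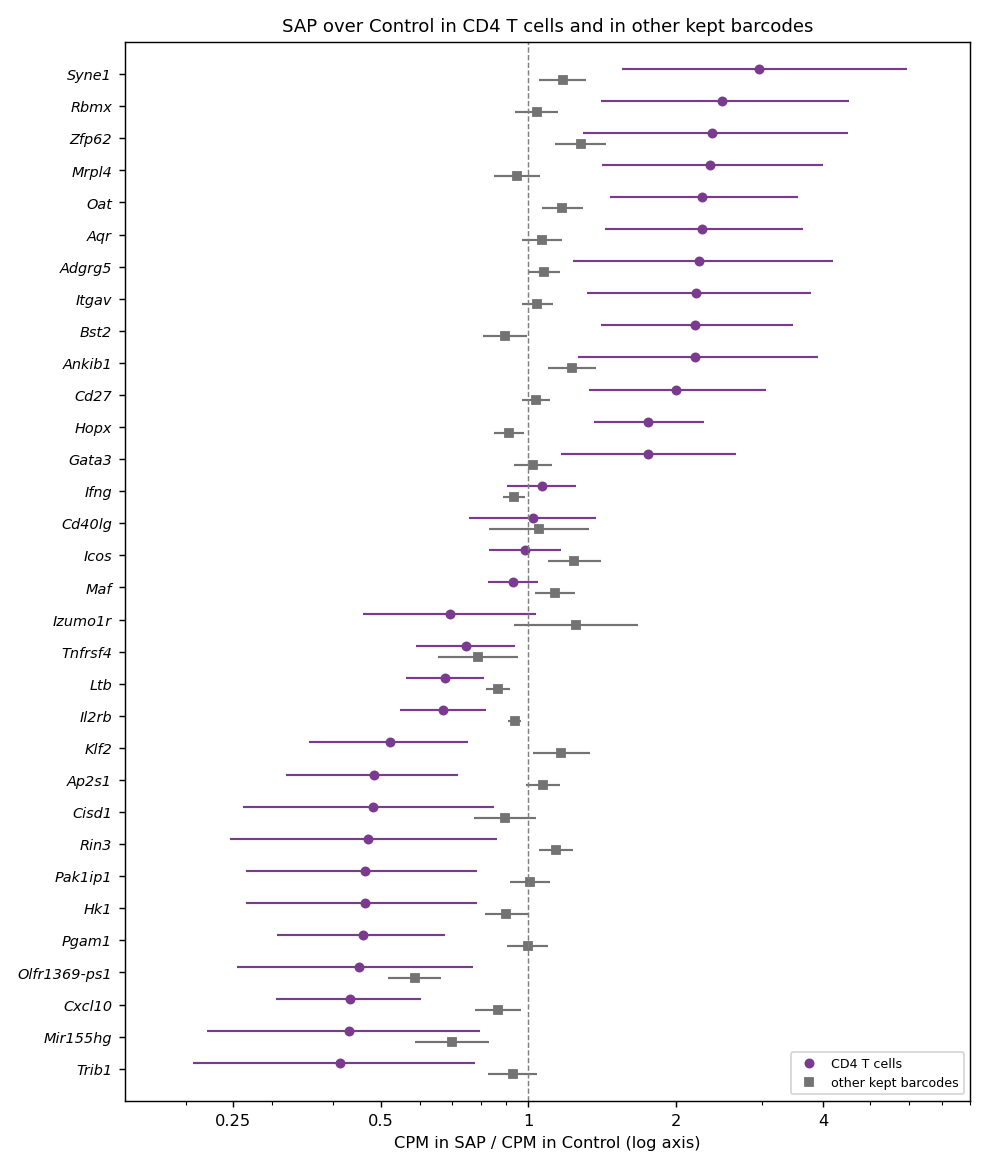
Ratio of CPM in SAP over CPM in Control (x axis, log scale) with exact 95% counting intervals, for named genes and some followed genes (y axis), in CD4 T cells (purple circles) and other kept barcodes (grey squares). In CD4 T cells the named genes lie from 0.413-fold to 2.96-fold and the helper genes Cd40lg, Icos and Maf near 1, and most of the same genes lie near 1 in other kept barcodes.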

How the data were processed

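Single T cells of mouse ileum were captured with a 10x Genomics 3' version 3 kit, per the labels' protocols, as 1 library labelled SAP and 1 labelled Control. The deposited values are raw UMI counts per gene and barcode. The file headers name Cell Ranger 7.1.0 as the program that wrote them, and mm10 and Seurat come from the submitters' processing notes. Filters before deposit and the annotation version are not stated there, so gene names are those of the deposited lists and no coordinates are given. No step was applied to the counts beyond the rule that opens the report, thinning where stated, and sums.

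UMIs were summed per group of cells and library and scaled to CPM. A ratio has an exact conditional binomial 95% interval and a share an exact Clopper-Pearson one, both for counting error only. With 1 library per group no p-value was computed. Named genes were, among eligible genes whose interval excludes 1, the 20 highest and 10 lowest by the weaker library for CD4 T cells over other kept barcodes, the 12 highest and 12 lowest likewise for the Cd8a split, and the 10 highest and 10 lowest for SAP over Control that stay on their side of 1 without the top cell of each library. Genes of the rule, mitochondrial, ribosomal, Gm-numbered and Rik genes and receptor segments were left out of that ranking, and the values of a few genes are not reported here. Counts were followed over 30 gene lists, of which 3 symbols were missing from the files. The members, the lists and the markers were chosen with earlier results of these data known.

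Doublets were not removed in the main values. Scrublet (scanpy 1.11.5) marked 1 barcode in each library by its own threshold, so its top scores up to 0.8% per 1000 barcodes served as an alternative (202 in SAP, 257 in Control). For scaling alternatives, factors were taken from edgeR 4.0.16 and DESeq2 1.42.0, and neither was used to test. The ratio script was checked on simulated data.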

Additional observations from a re-analysis of the deposited data

Results flagged for a closer look

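In 3 genes of the dissociation stress and receptor signal lists, the ratios between CD4 T cells with and without a Cd8a UMI lay on opposite sides of 1. The intervals excluded 1 in both libraries. The gene lists held 117 genes eligible in this comparison. How many of all eligible genes did the same is not given here, so the 3 cannot be set against a background. The difference between the libraries was not tested, since each is 1 sample. Zfp36, a factor that destabilises cytokine mRNAs, was at 0.606-fold in SAP (0.419 to 0.859) and 1.37-fold in Control (1.05 to 1.79). Tnfaip3, the NF-kB inhibitor A20, was at 0.848-fold in SAP (0.719 to 0.996) and 1.18-fold in Control (1.01 to 1.37). In Control 1 cell with Cd8a held 41 of the 236 Tnfaip3 UMIs. Jund, a subunit of AP-1, was at 1.19-fold in SAP (1.05 to 1.36) and 0.856-fold in Control (0.734 to 0.994). In SAP 1 cell with Cd8a held 41 of the 345 Jund UMIs. The Tnfaip3 and Jund values thus lean on 1 cell each, and several of these intervals end close to 1.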

How the results depend on the processing

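Keeping only cells with at least 2 Cd4 UMIs lowered the CD4 T cell share to 1.69% of kept barcodes in SAP and 1.47% in Control, and the Cd8a share became 33.3% in SAP and 19.3% in Control. Genes past the fold were then 61 for the Cd8a split and 162 for SAP over Control. Thinning each cell to 1000 UMIs before the rule gave shares of 2.01% and 1.93%, a Cd8a share of 11.1% in Control, and 545, 30 and 53 genes past the fold for CD4 T cells over others, the Cd8a split and SAP over Control. With no filter beyond 10 UMIs those counts were 3454, 739 and 2226, against 347, 161 and 315 in the main values. Directions that turned, as log2 ratios, were S100a4 (-1.04) and S100a6 (-1.92) with no limit on Rps19-ps6 and, under thinning before the rule, Klf2 against other barcodes (-0.29) and, for SAP over Control, Aqr (-0.45), Gata3 (-0.38), Itgav (-0.18), Mrpl4 (-0.28), Rbmx (-0.60) and Trgc1 (-0.28); the thinned sums hold fewer cells and UMIs, and the cause was not tested. The count without the Igkc-rich Control barcode and the ratios without a gene's top cell were added after the data were seen. Of the single-gene values recomputed under the alternatives, 1439 stayed within the interval of the main value, 74 left it and 9 turned. Of the list medians, 595 moved by less than 0.2 and 69 by more, and of the shares of cells with a lineage gene, 37 stayed within the interval of the share thinned to 1000 UMIs and 51 left it when cells were thinned to 2000 UMIs or not thinned. A further 18 ratios with 0 UMIs on 1 side have no log2 value and were not followed. No paired analysis was possible because each group is 1 library. Depth limits the rule, since a cell without a Cd4 UMI may still express Cd4.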

Other observations

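Kept barcodes with a Cd4 UMI that the rule left out numbered 36 in SAP and 33 in Control. Of these, 9 and 9 held Cd8b1, 14 and 13 Trdc, and 17 and 13 Mki67. They were deeper than the CD4 T cells, with medians of 6958.5 UMIs in SAP and 5314 UMIs in Control, and 6 and 6 of them had high Scrublet scores. At least 1 of the 5 helper genes was found in 83.3% of them in SAP (exact interval 67.2 to 93.6) and 72.7% in Control (54.5 to 86.7).

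Variable segments of the T cell receptor had few UMIs. Summed over the CD4 T cells, alpha segments had 36 UMIs in SAP and 53 in Control, beta segments 44 and 40, delta segments 2 and 2, and gamma segments 78 and 54. The gamma segments were thus at 105 CPM in SAP and 63.4 CPM in Control CD4 T cells, against 190 and 174 CPM in other kept barcodes.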
